A study of Mus musculus with 10 samples.

Results

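The cultures of D1 and D3, called transit here, were compared with those of D0 and D7, called the ends, to ask which genes mark cells on the way that differ from both the start and the end of a reprogramming course. The comparison used 8 of the 10 libraries of the series, the 4 of D1 and D3 and the 4 of D0 and D7. The 2 libraries of D5 entered no mean of either side and served for the shared estimate of spread. All cells were primary mouse embryonic fibroblasts of passage 2 from embryos of embryonic day 13.5, whose fathers carried an Oct4-GFP transgene on a CBA/CaJ × C57BL/6J background and whose mothers were 129S4/SvJaeJ. Every culture, D0 included, had received Jdp2, Sall4, Esrrb and Glis1 from retroviruses over 48 hours, so none of the groups was free of the factors. After that, the transit cultures spent 24 hours (D1) or 72 hours (D3) in the induction medium iCD3, against 0 hours (D0) and 168 hours (D7) for the ends. Jdp2 is a basic leucine zipper protein that represses AP-1 targets, Esrrb is an orphan nuclear receptor of the pluripotency network, and Sall4 and Glis1 are zinc finger proteins.

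As background, a fibroblast that is reprogrammed first gives up its contractile and matrix programme, then gains epithelial genes, and switches on the endogenous pluripotency genes late. Pluripotent cells divide fast and make much of their energy by glycolysis, while fibroblasts divide more slowly and respire more. A gene that only climbs or only declines over the course lies between the ends at D1 and D3. A gene that leaves its starting level and comes back is what this comparison singles out, and such a gene is called transient below.

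The libraries of replicate 1 held 2176457 to 4335931 estimated counts and those of replicate 2 held 1329377 to 1492105, so that 3 counts were worth 0.692 to 2.26 counts per 1000000 (CPM). Markers of fibroblasts summed to 737 to 2136 CPM in transit, against 8731 and 9157 CPM at D0 and 508 and 801 CPM at D7. Markers of pluripotent cells summed to 67.0 to 365 CPM in transit and reached 1306 and 1058 CPM at D7, so the transit cultures lay between the ends in these. For the fibroblast markers D3 replicate 1 lay below D7 replicate 2. Macrophage, erythroid, skeletal muscle, keratinocyte and adipocyte markers stayed at or under 21.8 CPM in each transit library and at or under 23.9 CPM in each end library, and the erythroid gene Hbb-bs and the adipocyte gene Cfd were at 0. Neuronal markers summed to 7.58 to 20.6 CPM in transit and 23.4 to 112 CPM at the ends, and endothelial markers to 25.7 to 39.4 CPM and 17 to 139 CPM. In these bulk samples, fewer cells that express a gene and less of its RNA per cell cannot be told apart. The series design mentions 2 independent experiments, and the labels name several library and sequencing kits without tying them to libraries. Each p-value therefore weighs a difference against the scatter among these libraries only, and part of that scatter may be technical.

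Of 12752 genes tested, 2427 (19.0%) differed between transit and the ends at an adjusted p under 0.05. Of these, 1310 (10.3%) were higher and 1117 (8.76%) were lower in transit. A mean over both ends can move through 1 end alone, and for most of the genes called it did. Among the 1310 higher genes, 387 passed the test against D0 alone, 448 against D7 alone and 65 against neither, and 410 passed against both. Among the 1117 lower genes the same counts were 411, 439, 24 and 243. The transient genes were thus 410 higher (3.22% of the genes tested) and 243 lower (1.91%), together 5.12%. Both tests share the 4 transit libraries, so that a stray value there would enter both. In 357 of the 410 and 207 of the 243 the 4 transit libraries did not overlap the 4 end libraries, beside 7.03% and 5.22% of all genes tested. The genes were chosen on these 8 libraries, so nothing is read from these shares. The lesser of a gene's shifts against D0 and D7 had a median of 1.23 log2 units among the transient higher genes and 1.08 among the lower ones. Requiring each of D1 and D3 to differ from each of D0 and D7 left 170 higher and 48 lower genes. The counts moved with single libraries: they fell to 170 higher without D7 replicate 2 and 67 lower without D0 replicate 2, and reached 715 and 714 higher and 410 and 423 lower without D5 replicate 1 and without D5 replicate 2. Without D0 replicate 1, D1 replicate 1, D7 replicate 1 or D0 replicate 2, 184 to 215 genes were transient higher, and 88 to 107 were transient lower without D0 replicate 1, D1 replicate 1, D7 replicate 1 or D7 replicate 2. Without D1 replicate 2, 149 were transient lower. The 1310 higher genes became 580 to 869 without D1 replicate 1 or any library of D0 or D7, and 1994 and 1982 without the D5 libraries. The 1117 lower genes became 372 to 687 without D3 replicate 1 or any library of D0, D1 or D7, and 1690 and 1724 without the D5 libraries.

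**Figure D1:**
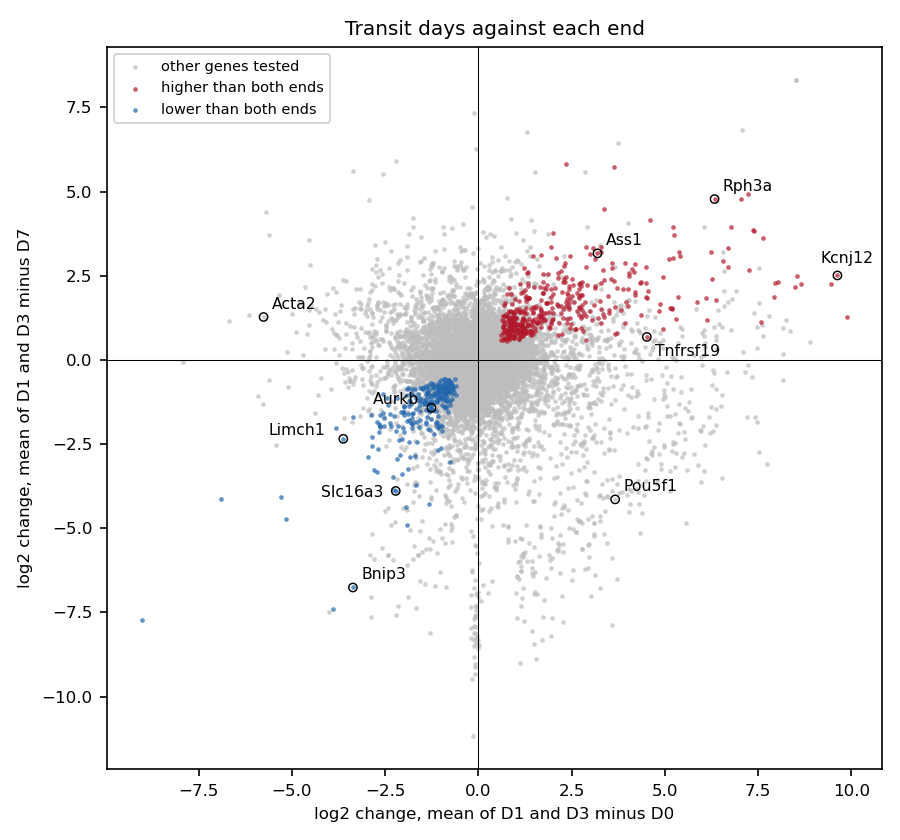
Each point is 1 of 12752 genes, placed by its log2 change in transit against D0 (horizontal axis) and against D7 (vertical axis). The 410 transient higher genes lie in the upper right and the 243 transient lower genes in the lower left, while genes such as Pou5f1 and Acta2, which lie between the ends in transit, are in the other quadrants.

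The genes that stood out most in transit encode proteins of several kinds, among them a synaptic vesicle effector, cytokine receptors and an enzyme of arginine synthesis. Among the 12 largest, ranked by the lesser of the 2 shifts, were Rph3a, Itih3, Il21r, Nol4, Amh, Il18r1, Fstl4, Il9r, Ass1, Dlx4 and Car4. Rph3a encodes rabphilin, a Rab effector that binds synaptic vesicles, and led the order. It had 28.6 and 22.8 CPM at D1 and 34.2 and 24.6 CPM at D3, against 0.489 and 0 CPM at D0 and 1.09 and 0.657 CPM at D7. No library of the ends came near the transit libraries. Pooled over libraries it had 276 counts in transit and 1 at D0, a ratio of levels of 107 (exact 95% interval 19.1 to 4249, counting error only), and it was 4.78 log2 units above D7 (larger adjusted p of the 2 tests 0.000166). Itih3 encodes a heavy chain of the inter-alpha-trypsin inhibitors, which bind hyaluronan. It had 41.1 and 18.5 CPM at D1 and 29.6 and 28.3 CPM at D3, against 1.47 and 0.748 CPM at D0 and 2.39 and 0 CPM at D7, a mean difference of 4.38 ± 0.53 log2 units (SE, adjusted p = 0.000224). The promoter windows of these leaders are printed so that the letters before genes with the same course can be set side by side. They are the minus strand of chr5:121010043-121010342 for Rph3a and of chr14:30923538-30923837 for Itih3, from 250 bases before to 50 bases after the first start that RefSeq lists, on build GRCm38.p6. Capitals mark matches on either strand to the motifs searched, TGANTCA (AP-1 element), TGACGTCA (CRE), TTCCNGGAA (STAT), CTTTGATC (TCF/LEF), TCAAGGTCA (Esrrb), CCAAT (the box of that name), TTTGAA (the cell cycle homology region, CHR), ACGTG (hypoxia core) and TGATGNAA (CHOP-ATF composite).
Rph3a: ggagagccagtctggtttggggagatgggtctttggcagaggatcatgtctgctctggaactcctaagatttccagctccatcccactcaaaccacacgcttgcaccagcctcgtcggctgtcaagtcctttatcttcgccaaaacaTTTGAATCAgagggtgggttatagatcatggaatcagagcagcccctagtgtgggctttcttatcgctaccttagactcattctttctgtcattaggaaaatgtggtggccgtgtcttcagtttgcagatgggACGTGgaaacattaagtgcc
Itih3: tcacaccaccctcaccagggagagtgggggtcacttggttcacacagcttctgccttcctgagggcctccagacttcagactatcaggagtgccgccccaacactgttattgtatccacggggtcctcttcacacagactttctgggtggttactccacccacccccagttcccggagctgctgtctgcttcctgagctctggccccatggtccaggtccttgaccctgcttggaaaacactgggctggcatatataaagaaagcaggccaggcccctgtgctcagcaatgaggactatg
The capitals of Rph3a are a CHR and a match to the AP-1 pattern that overlap and 1 hypoxia core, and Itih3 has none. The AP-1 pattern leaves its middle base open, and in Rph3a that base is A. The pattern, which takes in the kind of site that Jdp2 binds among others, stood in 4.44% of the 293 transient higher promoters with a window. In the 192 transient lower ones it stood in 1.04%, against 4.43% of 9634 tested genes and 7.93% of all 27025 windows. The CRE stood in 3.41% and 4.17%, against 3.34% of tested genes and 1.88% of all windows. The STAT element stood in 1.37% and 0.521%, against 1.25% and 1.15%. The TCF/LEF element stood in 0.683% and 0.521%, against 0.695% and 0.936%. The Esrrb element stood in 0.341% and 0%, against 0.228% and 0.407%. These are descriptions of letters and not sites shown to be bound.

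Ass1 encodes argininosuccinate synthase, which joins citrulline and aspartate on the way to arginine. It had 3911 and 3510 CPM at D1 and 3940 and 5752 CPM at D3, against 449 and 469 CPM at D0 and 391 and 574 CPM at D7. Every transit library was far above every end library, and the ends were alike. The gene was 3.18 ± 0.23 log2 units higher in transit (adjusted p = 2.18e-05), with nearly the same step against D0 (3.20) and D7 (3.16). Car4, a membrane-anchored carbonic anhydrase, had 306 and 106 CPM at D1 and 472 and 410 CPM at D3, against 7.34 and 8.98 CPM at D0 and 35.0 and 39.4 CPM at D7. Its groups did not overlap either, with changes of 5.23 against D0 and 3.03 against D7 (larger adjusted p = 0.000761). Fstl4, a secreted protein related to follistatin, had 53.6 and 58.3 CPM at D1 and 21.1 and 29.1 CPM at D3, against 5.38 and 1.497 CPM at D0 and 3.48 and 3.94 CPM at D7. Both transit days were above both ends, by 3.29 log2 units over D0 and 3.34 over D7 (larger adjusted p = 0.000246). Dlx4, a homeobox transcription factor, had 48.4 and 30.6 CPM at D1 and 28.1 and 26.1 CPM at D3, against 3.42 and 4.49 CPM at D0 and 3.92 and 1.97 CPM at D7, a mean difference of 3.20 ± 0.31. The cytokine receptor gene Il9r had 11.6, 10.7, 12.6 and 12.7 CPM in transit, against 1.47, 0.748, 1.52 and 0.657 CPM at the ends (3.25 ± 0.47, adjusted p = 0.000738). Its 4 transit libraries were nearly equal. Of the 24 largest genes in both directions, 11 kept their call without each library in turn, among them Rph3a, Itih3, Fstl4, Il9r, Ass1, Dlx4 and Car4. The receptor gene Il21r lost it without D7 replicate 1 (larger adjusted p = 0.0637). Amh, the anti-Müllerian hormone, lost it without D0 replicate 1 (0.145) or D7 replicate 1 (0.0824). Il18r1, a further interleukin receptor, lost it without either D0 library, either D7 library or D1 replicate 1 (0.0567 to 0.104). Nol4 lost it without either D0 library, D1 replicate 1, D3 replicate 1 or D7 replicate 1 (0.0507 to 0.222) and without the replicate term (0.0678).

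**Figure D2:**
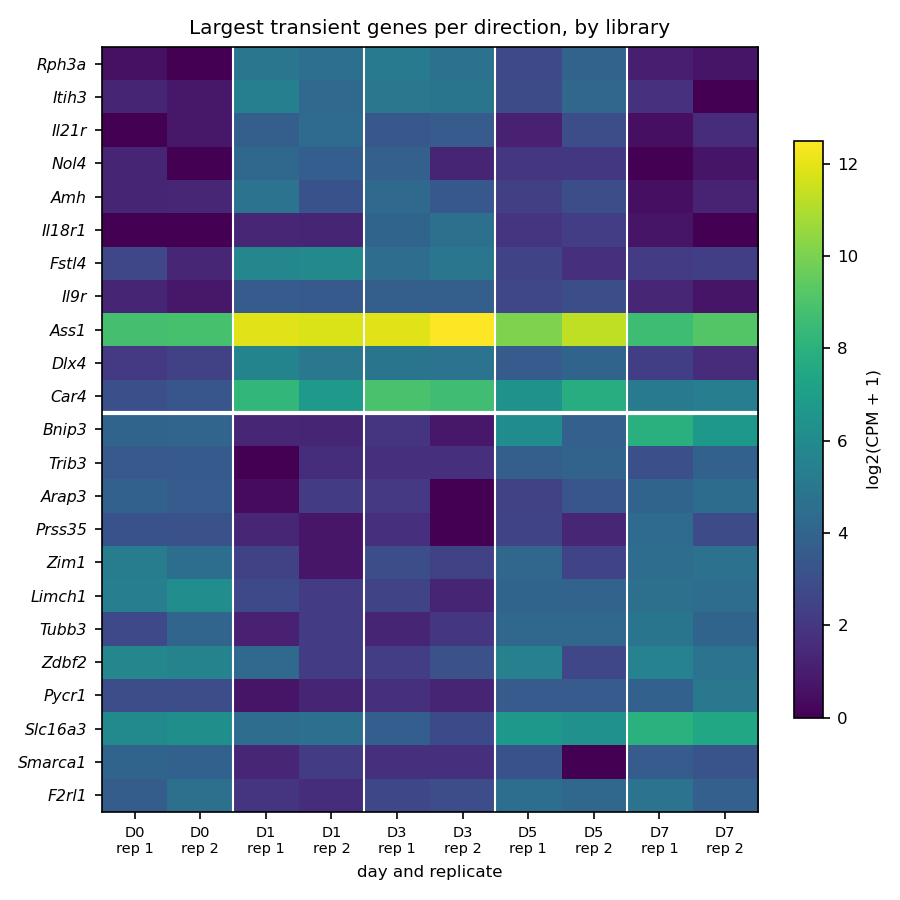
Colours give log2(CPM + 1) for 11 of the 12 largest transient higher genes and the 12 largest lower genes (lines) in each of 10 libraries in order of day (columns). The D1 and D3 columns are brighter than the D0 and D7 columns in the upper block, as in Ass1, and darker in the lower block, as in Bnip3, and the 23 genes drawn do not overlap between transit and ends because they were chosen that way.

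Ion channel and synaptic genes held several of the transient genes. List counts are to be read beside the shares over all genes tested, of which 10.3% were higher and 8.76% lower, and 3.22% transient higher and 1.91% transient lower. Of 32 tested genes for potassium and calcium channels, of 118 listed, 9 were higher and 3 lower, 6 and 2 of them transient, and the median change was 0.43 log2 units against -0.01 over all genes tested. Of 25 tested sodium, chloride and TRP channel genes, of 54 listed, 11 were higher and 1 lower. Of these 4 and 0 were transient, and the median was 0.41. Of 28 tested ligand-gated receptor and synaptic genes, of 111 listed, 7 were higher and 1 lower. Of these 4 and 1 were transient, and the median was 0.52. The filter on low counts keeps a gene with enough reads on any single day. A member silent at the ends can thus enter through its transit libraries, which by itself raises such shares and medians. Nothing is therefore read from their excess over all genes, here or in other lists with many untested members. The 11 became 7 without D1 replicate 1 or D0 replicate 2, and the 7 became 4 without D1 replicate 1. The 1 lower sodium, chloride and TRP channel gene became 0 or 2 without each library except D0 replicate 2, and the 1 lower receptor or synaptic gene became 2 without D3 replicate 1 or either D5 library. The 6 transient potassium and calcium channel genes became 2 without D7 replicate 2 and 3 without D3 replicate 2 or the replicate term, and the 2 lower ones became 1 without each library of D0, D1, D3 and D7. The 4 transient sodium, chloride and TRP channel genes became 2 without D1 replicate 2 or the replicate term, and the 4 transient receptor and synaptic genes became 2 without D7 replicate 1. The transient lower receptor gene was lost without D0 replicate 2. Kcnj12, an inward rectifier potassium channel, had 28.9 and 34.9 CPM at D1 and 43.9 and 64.8 CPM at D3, against 0 and 0 CPM at D0 and 5.44 and 9.86 CPM at D7. With 381 pooled counts in transit and 0 at D0, it was at least 49.3-fold higher than a floor of 3 counts over the D0 libraries, and 2.51 log2 units above D7 (larger adjusted p = 0.000245). It was detected in each transit library above each end library. Chrna4, a nicotinic acetylcholine receptor subunit, had 52.6, 64.0, 68.2 and 213 CPM in transit, against 0.489 and 2.25 CPM at D0 and 18.5 and 30.9 CPM at D7, and was 1.83 log2 units above D7 (larger adjusted p = 0.00109). Syt7, a calcium sensor of vesicle fusion, had 47.8, 49.1, 30.7 and 41.7 CPM in transit, against 11.7, 13.5, 7.83 and 8.54 CPM at the ends (2.02 ± 0.24). Kcnq1, a voltage-gated potassium channel of heart and epithelium, had 62.1, 46.2, 98.6 and 125 CPM in transit, against 0.979 and 0.748 CPM at D0 and 22.2 and 23.0 CPM at D7, and its call was lost without D7 replicate 2 (larger adjusted p = 0.0554). Cacng7, a calcium channel subunit that accompanies AMPA receptors, went the other way, at 6.70, 12.1, 4.68 and 2.98 CPM in transit, against 24.9, 39.7, 21.3 and 23.6 CPM at the ends (-2.12 ± 0.29).

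Over the 17 tested neural markers of 39 listed, 3 were higher and 5 lower, beside 10.3% and 8.76% among all genes. The neurofilament gene Nefh had 52.0 and 66.9 CPM at D1 and 117 and 180 CPM at D3, against 1.47 and 4.49 CPM at D0 and 7.83 and 17.7 CPM at D7 (4.06 ± 0.35, adjusted p = 3.13e-05). Nefm, its partner in the filament, had 38.3, 144, 65.3 and 168 CPM in transit, against 1.47, 1.497, 22.8 and 27.6 CPM at the ends, and lost its call without D7 replicate 2 (larger adjusted p = 0.0673) or without the replicate term (0.0636). Tubb3, the neuronal beta-tubulin, had 1.22, 3.56, 1.46 and 2.98 CPM in transit, against 5.87, 15.7, 27.8 and 15.1 CPM at the ends, and was transient lower. That call was lost without D1 replicate 1, D3 replicate 1 or D0 replicate 2 (larger adjusted p = 0.0683, 0.0679 and 0.285). The 3 higher markers became 5 without either D5 library, the 5 lower ones became 2 or 3 without each library of the other days, and the median of -0.50 turned to 0.18 under the stricter filter on low counts. Among 50 guidance genes (semaphorins, ephrins, slits and netrins), 7 were higher and 6 lower, beside 10.3% and 8.76% among all genes. The 7 became 11 without either D5 library and the 6 became 2 or 3 without D0 replicate 1, D1 replicate 1, D3 replicate 1 or D0 replicate 2. Plxna4, a semaphorin receptor in that list, had 65.4, 148, 33.6 and 67.1 CPM in transit, against 13.7, 12.7, 5.87 and 15.1 CPM at the ends (2.60 ± 0.30, adjusted p = 0.000165). Its transit libraries were all above its end libraries.

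The signalling lists held called genes, of which a smaller number were transient. Of 21 tested Wnt targets and feedback genes, 10 were higher and 2 lower, with a median of 0.84, of which 2 were transient, and the median was 1.20 against D0 and 0.12 against D7. The 2 transient genes became 0 without D1 replicate 1, D7 replicate 2 or the replicate term, and 1 without either D0 library, either D3 library, D7 replicate 1 or D1 replicate 2. The 10 became 6 without the replicate term, and the 2 lower became 1 without D1 replicate 1, D3 replicate 1 or any library of D0 or D7. Of 19 primitive streak and posterior embryo genes, 4 were higher and 3 transient, and their summed level was 75.5 and 91.8 CPM at D1 and 207 and 171 CPM at D3, against 20.1 and 18.7 CPM at D0 and 313 and 227 CPM at D7. The 4 became 1 without D1 replicate 1, and 2 without D0 replicate 1, D0 replicate 2 or D7 replicate 2, and the 3 transient genes became 1 without D1 replicate 1, either D3 library, either D7 library or the replicate term. Mixl1, a homeobox gene of the streak, had 21.3, 22.8, 17.9 and 22.4 CPM in transit, against 0 and 0 CPM at D0 and 4.35 and 3.94 CPM at D7. It was level across the 4 transit libraries, at least 24.98-fold above the floor of D0 (193 pooled counts against 0) and 2.26 log2 units above D7 (larger adjusted p = 0.00191). Fgf17, a fibroblast growth factor of the posterior embryo, had 9.43 and 3.56 CPM at D1 and 48.3 and 45.4 CPM at D3, against 0.979 and 0 CPM at D0 and 7.18 and 5.91 CPM at D7. It is thus mainly a D3 gene, and D1 replicate 2 lay below both D7 libraries. Its call was lost without either D3 library, either D7 library or D1 replicate 1 (larger adjusted p = 0.064 to 0.4), without the replicate term (0.0959) and under 5 other alternatives.

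In the retinoid pathway, Aldh1a3, which makes retinoic acid, and the receptor Rarg moved in opposite directions. Aldh1a3 had 106 and 82.5 CPM at D1 and 25.5 and 46.9 CPM at D3, against 7.83 and 7.48 CPM at D0 and 8.70 and 7.23 CPM at D7 (2.83 ± 0.31, adjusted p = 9.68e-05). Rarg had 24.9 and 22.1 CPM at D1 and 10.2 and 8.20 CPM at D3, against 41.6 and 68.9 CPM at D0 and 50.03 and 54.5 CPM at D7 (-1.82 ± 0.23, adjusted p = 0.000279). For both genes the ends were alike and the transit libraries stood apart. Over the 14 tested genes of the pathway 4 were higher and 3 lower, with a median of 0.14 that turned to -0.01 under log2(TPM + 1), to -0.06 without D0 replicate 2, to -0.01 without D7 replicate 2 and to -0.39 in replicate 1 alone. Among 19 targets and receptors of LIF and STAT3, 2 were higher and 3 lower, beside 10.3% and 8.76% over all genes. The 2 became 1 without either D1 library, D0 replicate 2 or D7 replicate 2, and the 3 became 1 without D0 replicate 2 and 6 and 5 without the D5 libraries. Socs3, the feedback inhibitor of that pathway, had 128 and 161 CPM at D1 and 206 and 333 CPM at D3, against 20.6 and 26.9 CPM at D0 and 67.0 and 108 CPM at D7 (2.11 ± 0.16, adjusted p = 2.44e-05). Pim1, a kinase gene that STAT3 also switches on, had 10.0, 29.2, 10.2 and 23.1 CPM in transit, against 48.4, 86.8, 48.7 and 109 CPM at the ends (-2.07 ± 0.26). Both of these kept their calls without each library in turn, as did Aldh1a3 and Rarg. Among 13 Notch genes 4 were higher and 1 lower. The Notch target Hey1 had 29.2 and 46.2 CPM at D1 and 95.1 and 171 CPM at D3, against 2.45 and 8.23 CPM at D0 and 20.7 and 27.6 CPM at D7. Its call was lost without D7 replicate 2 (larger adjusted p = 0.0622) or without the replicate term (0.0674). Of 19 tested TGF-beta and activin targets 2 were higher and 7 lower, with 15 of 19 changes below 0, and medians of -0.59 against the ends, -2.001 against D0 and 1.18 against D7. The 7 became 11 without either D5 library, and the 2 became 1 without D1 replicate 1, D0 replicate 2 or D7 replicate 2. Of 22 FGF-ERK feedback genes 6 were higher and 1 lower, and the 6 became 3 without D1 replicate 1 or D7 replicate 1, and the 1 became 0 without either D0 library, D1 replicate 1 or D7 replicate 2 and 2 without D1 replicate 2 or either D5 library. Of 10 hedgehog genes 1 was higher and 4 were lower, and the 4 became 2 without D1 replicate 1 and the 1 became 2 without D3 replicate 1 or either D5 library. Bambi, a decoy receptor of the TGF-beta family, had 57.5, 70.4, 76.4 and 94.6 CPM in transit, against 21.0, 21.7, 24.1 and 32.9 CPM at the ends (1.58 ± 0.22). Gas1, a hedgehog co-receptor, had 13.7, 24.9, 18.7 and 35.0 CPM in transit, against 93.9, 169, 34.4 and 141 CPM at the ends (-2.12 ± 0.23), and D3 replicate 2 overlapped D7 replicate 1.

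Epithelial genes were mostly on a path between the ends. Of 28 tested junction genes and regulators, 10 were higher in transit and none lower (median 0.73), but the median was 2.10 against D0 and -0.97 against D7, and 3 were transient, or 1 without D0 replicate 1 or D7 replicate 1. Krt19, a keratin of simple epithelia, had 179, 204, 236 and 183 CPM in transit, against 44.0, 59.9, 42.6 and 65.7 CPM at the ends. Every transit library was far above every end library, yet the call was lost without D0 replicate 1, D7 replicate 1 or D0 replicate 2 (larger adjusted p = 0.0566, 0.0544 and 0.0566). Esrp2, a splicing factor of epithelial cells, had 43.2, 26.3, 51.8 and 128 CPM in transit, against 8.81, 16.5, 9.79 and 5.91 CPM at the ends, and lost its call without D0 replicate 1 (0.0906).

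Genes of respiration were raised together by a small amount in transit, and in replicate 2 also at D5. Of 76 tested genes of oxidative phosphorylation 35 were higher and none lower, beside 10.3% higher among all genes, and 14 were transient, beside 3.22%. The median change was 0.59 log2 units, with 0.63 against D0 and 0.59 against D7, and 72 of the 76 changes were above 0. Their summed level was 13490 and 13160 CPM at D1 and 16210 and 14690 CPM at D3. At D0 it was 9444 and 9325 CPM and at D7 8929 and 10120 CPM, so transit and ends did not overlap. At D5 it was 10080 CPM in replicate 1 and 16320 CPM in replicate 2. In replicate 2 the level was thus higher at D5 than on either transit day. Ndufs8, a complex I subunit, had 83.4, 117, 127 and 173 CPM in transit, against 43.5, 49.4, 44.4 and 60.5 CPM at the ends (1.29 ± 0.23, adjusted p = 0.00281), and lost its transient call without D7 replicate 1, D0 replicate 2 or D7 replicate 2 (larger adjusted p = 0.0656, 0.133 and 0.113) and without the replicate term (0.0831). The count of 35 rested on many libraries: it was 5 without D1 replicate 1, 11 without D7 replicate 1 or D0 replicate 2, 12 without D3 replicate 1, 13 without D7 replicate 2, 20 without D0 replicate 1, 59 without either D5 library and 11 without the replicate term. The count of 14 transient genes was 0 to 9 without each library of D0, D1 and D7 and without D3 replicate 1, 38 without either D5 library and 0 without the replicate term. The direction did not rest on them, since the median was 0.68 in replicate 1 alone and 0.49 in replicate 2 alone. These messages are short: 71 of the 76 lie in the shortest quartile of genes (129 to 1614 bases), where the median change of all genes was 0.07, with 9.94% higher and 5.08% lower, against -0.07, 10.2% and 10.6% in the longest. The part of length in the result was not tested. The share of counts on mitochondrial messenger RNAs was 4.83% and 3.205% at D1 and 3.09% and 5.36% at D3, against 2.75% and 2.17% at D0 and 3.12% and 3.27% at D7. Of these 13 messages 5 were higher and none transient (median 0.72), and the 5 became 0 without D1 replicate 1, D3 replicate 2 or D7 replicate 2, 1 without D7 replicate 1 or D0 replicate 2 and 8 without either D5 library.

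Ldhb, the lactate dehydrogenase subunit that favours pyruvate as product, had 2053 and 1493 CPM at D1 and 1929 and 2005 CPM at D3, against 403 and 364 CPM at D0 and 295 and 432 CPM at D7 (2.35 ± 0.30, adjusted p = 0.000305). It left and came back by a similar step against D0 (2.29) and D7 (2.41). Lysosome and autophagy genes had 11 of 30 higher and none lower, with a median of 0.48, of which 2 were transient. The 2 became 1 without D0 replicate 2, either D7 library or the replicate term, and 7 without either D5 library. The 11 were 5 without D0 replicate 2, 6 without D1 replicate 1 or D7 replicate 2, 7 without D3 replicate 1, 3 without the replicate term and 18 without either D5 library. Tfeb, a transcription factor that switches on lysosomal genes, had 89.2 and 104 CPM at D1 and 79.9 and 130 CPM at D3, against 14.2 and 21.0 CPM at D0 and 16.3 and 28.2 CPM at D7. It kept its call without each library and was 2.38 ± 0.25 log2 units higher (adjusted p = 8.33e-05). Of 88 cytosolic ribosomal protein genes 1 was higher and 2 were lower, and without single libraries 0 to 3 and 0 to 2 were.

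**Figure D3:**
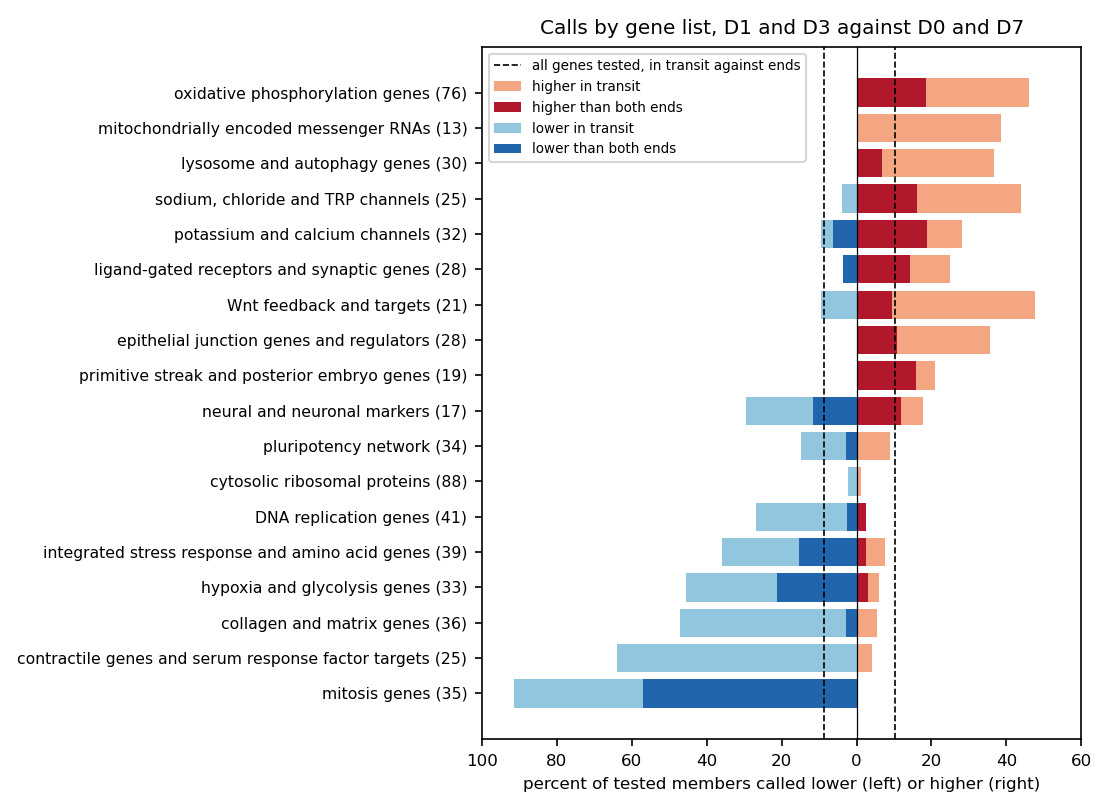
Bars give, for 18 gene lists with the number of tested genes in brackets, the percent called lower (left) and higher (right) in transit, with the transient share in the darker colour and the shares over all genes, 8.76% and 10.3%, as dashed lines. Oxidative phosphorylation (35 of 76 higher, none lower) and mitosis (32 of 35 lower, none higher) are the 1-sided extremes among the larger lists.

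The genes that dipped furthest in transit were led by Bnip3 and Trib3, known as targets of the hypoxia and the amino acid stress response. The 12 largest were Bnip3, Trib3, Arap3, Prss35, Zim1, Limch1, Tubb3, Zdbf2, Pycr1, Slc16a3, Smarca1 and F2rl1. Bnip3, a mitophagy receptor induced by hypoxia, had 1.52 and 1.42 CPM at D1 and 2.63 and 0.745 CPM at D3, against 15.2 and 15.7 CPM at D0 and 240 and 102 CPM at D7 (-5.06 ± 0.43, adjusted p = 3.13e-05). It was low in every transit library and already lower there than at D0, before the high level of D7. Both replicate 2 values in transit lay under the level of 3 counts (2.03 CPM at D1 and 2.20 CPM at D3). The size of the dip thus rests on few reads. Slc16a3, the exporter of lactate MCT4, had 21.0 and 22.8 CPM at D1 and 12.3 and 5.96 CPM at D3, against 59.2 and 74.8 CPM at D0 and 253 and 180 CPM at D7 (-3.05 ± 0.23, adjusted p = 2.18e-05). P4ha1, a prolyl hydroxylase of collagen that hypoxia also induces, had 81.2, 66.2, 68.5 and 37.3 CPM in transit, against 223, 204, 170 and 139 CPM at the ends (-1.56 ± 0.20). These 3 kept their calls without each library, with 1 exception among the other alternatives, Bnip3 on log2(TPM + 1) (larger adjusted p = 0.0695). P4ha2, its paralog, had 13.7, 11.4, 9.66 and 11.2 CPM in transit, against 48.9, 58.4, 45.0 and 26.3 CPM at the ends, and lost its call without D7 replicate 1 (0.0756). Over 33 tested hypoxia and glycolysis genes 2 were higher and 15 lower, with 1 and 7 of them transient. The median was -0.71, made of -0.09 against D0 and -1.10 against D7, so that the list as a whole was near its D0 level in transit. The 15 became 8 without D1 replicate 1, and the 7 transient lower genes became 4 without D7 replicate 1, D0 replicate 2 or the replicate term.

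Trib3, a pseudokinase switched on by ATF4, had 0 and 2.13 CPM at D1 and 2.34 and 2.23 CPM at D3, against 10.3 and 10.5 CPM at D0 and 7.396 and 13.8 CPM at D7. The groups did not overlap, but the counts were few and the call was lost without D0 replicate 1 (larger adjusted p = 0.116) or D7 replicate 2 (0.0508). Pycr1, an enzyme of proline synthesis, had 0.609, 1.42, 2.34 and 1.49 CPM in transit, against 6.85, 6.74, 13.7 and 30.9 CPM at the ends, and lost its call without D0 replicate 1, D1 replicate 1 or D0 replicate 2 (0.193, 0.0789 and 0.0594). Asns, asparagine synthetase, had 36.5, 36.3, 57.4 and 29.8 CPM in transit, against 72.9, 86.1, 244 and 249 CPM at the ends (-1.81 ± 0.20, larger adjusted p = 0.0125). These are enzymes or targets of the integrated stress response, which is raised when amino acids run short. Of the 39 tested genes of that list 3 were higher and 14 lower, 1 and 6 of them transient. In 12 of the 39, called or not, all transit libraries lay below all end libraries. Among all genes the shares were 8.76% lower, 1.91% transient lower and 5.22% lower without overlap. The 6 became 1 without D0 replicate 2 and 2 without D0 replicate 1 or D1 replicate 1. The median was -0.42, with -0.50 against D0 and -0.28 against D7. The single transient higher member was Ass1, and it alone made the summed level of the list higher in transit, at 7103, 7009, 7201 and 8755 CPM against 3979, 4571, 3890 and 4458 CPM. The 14 became 7 without D1 replicate 1, 8 without D7 replicate 1, 9 without D0 replicate 2, D1 replicate 2 or the replicate term, and the 3 became 1 without D3 replicate 1 or D0 replicate 2. The promoters of Bnip3 and Trib3 are printed because these genes lead the order of the largest dips. They are the minus strand of chr7:138909457-138909756 and of chr2:152344011-152344310, with the same span, build and capitals as above.
Bnip3: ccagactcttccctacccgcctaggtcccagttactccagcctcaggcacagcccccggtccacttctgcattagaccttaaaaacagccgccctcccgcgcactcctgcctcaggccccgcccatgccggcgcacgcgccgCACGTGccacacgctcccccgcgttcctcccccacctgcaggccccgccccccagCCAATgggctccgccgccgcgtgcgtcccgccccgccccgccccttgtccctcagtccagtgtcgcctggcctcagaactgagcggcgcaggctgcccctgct
Trib3: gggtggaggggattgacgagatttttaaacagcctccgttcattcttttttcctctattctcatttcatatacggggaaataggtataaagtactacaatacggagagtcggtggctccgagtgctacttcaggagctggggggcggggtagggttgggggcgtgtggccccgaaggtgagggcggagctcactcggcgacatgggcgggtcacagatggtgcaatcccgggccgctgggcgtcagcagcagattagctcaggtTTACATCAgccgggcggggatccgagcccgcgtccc
Bnip3 holds a CCAAT box and CACGTG, which is a hypoxia core on both strands, and Trib3 holds 1 CHOP-ATF composite. The hypoxia core stood in 17 of 29 promoters of the hypoxia and glycolysis list (58.6%), against 26.2% of tested genes and 19.7% of all windows. The CHOP-ATF composite stood in 10 of 33 promoters of the stress response list (30.3%), against 2.02% and 4.06%. Among the transient higher and transient lower promoters the hypoxia core stood in 27.0% and 23.4%, and the CHOP-ATF composite in 1.71% and 4.69%. Both motifs, with CCAAT and CHR, were chosen after values were seen. Beyond the filter on low counts, the list shares use no expression value, so nothing about the dips is read from them.

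Among the other large dips, Limch1, an activator of non-muscle myosin, had 5.78, 3.56, 4.97 and 1.49 CPM in transit, against 40.1, 68.1, 23.1 and 21.0 CPM at the ends (-2.98 ± 0.33, adjusted p = 0.000109). Zim1, an imprinted zinc finger gene, had 4.26, 0.712, 7.02 and 4.47 CPM, against 36.7, 21.7, 21.3 and 24.97 CPM (-2.71 ± 0.38). Both stood clear of the ends in all 4 transit libraries and kept their calls without each library. Cxcl12, the chemokine of stromal cells, had 19.5, 27.0, 12 and 22.4 CPM in transit, against 178 and 224 CPM at D0 and 37.9 and 102 CPM at D7 (-2.53 ± 0.22, adjusted p = 3.13e-05). Zdbf2, another imprinted gene, lost its call without D3 replicate 1 or D7 replicate 1 (larger adjusted p = 0.0526 and 0.0562). F2rl1, a protease-activated receptor, lost it without D7 replicate 1 or D0 replicate 2 (0.106 and 0.148). Arap3, Prss35 and Smarca1 lost it without 2, 3 and 7 of the libraries, Prss35 and Smarca1 also without the replicate term (0.0771 and 0.0971).

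Mitotic genes were lower in transit as a block. Of 35 tested mitosis genes 32 were lower and none higher, beside 8.76% lower among all genes, and 20 were transient lower, beside 1.91%. All 35 changes were below 0, with a median of -1.02 log2 units, -0.91 against D0 and -0.99 against D7. The summed level was 3142 and 2905 CPM at D1 and 2585 and 1654 CPM at D3, against 4844 and 4688 CPM at D0 and 5202 and 4770 CPM at D7. Each transit library lay below each end library, and D3 replicate 2 was lowest. Bub1, a kinase of the spindle checkpoint, had 45.6, 40.5, 35.4 and 15.7 CPM in transit, against 94.4, 63.6, 154 and 76.9 CPM at the ends (-1.52 ± 0.25, adjusted p = 0.00156). Aurkb, the kinase of the chromosomal passenger complex, had 39.6, 44.8, 24.0 and 14.9 CPM, against 59.7, 80.8, 75.5 and 81.5 CPM (-1.34 ± 0.20, adjusted p = 0.000927). Ndc80, an outer kinetochore protein, had 16.4, 7.83, 19.3 and 5.22 CPM, against 40.1, 29.2, 38.7 and 19.1 CPM (-1.39 ± 0.25). D3 replicate 1 thus overlapped D7 replicate 2 in Ndc80. Kif23, a kinesin of cytokinesis, had 62.4, 59.8, 51.5 and 23.1 CPM, against 98.8, 99.5, 125 and 85.4 CPM (-1.10 ± 0.20). These calls rested on single libraries in part. Aurkb lost its transient call without D0 replicate 2 (larger adjusted p = 0.103), Bub1 without D0 replicate 1, D1 replicate 1 or D0 replicate 2 (0.0508, 0.0586 and 0.161) and without the replicate term (0.14), Kif23 without D1 replicate 1, D7 replicate 1 or D0 replicate 2 (0.0527, 0.074 and 0.217) and without the replicate term (0.0656), and Ndc80 without D7 replicate 1 or D0 replicate 2 (0.107 and 0.0619) and without the replicate term (0.136).

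The count of 32 lower mitosis genes was 18 without D1 replicate 1, 21 without D0 replicate 2 and 17 without the replicate term. The count of transient mitosis genes ran between 1 (without D0 replicate 2) and 28 as single libraries were left out, with 12 or fewer without each library of D0, D1 or D7 or D3 replicate 2, and was 3 without the replicate term. The median was -0.78 in replicate 1 alone and -1.10 in replicate 2 alone. Mki67, the proliferation marker, had 349, 238, 198 and 162 CPM in transit, against 337, 376, 357 and 406 CPM at the ends, and was not called (-0.72 ± 0.24, adjusted p = 0.0518), although it passed without either D5 library (0.00373 and 0.00289) or D7 replicate 1 (0.0488). DNA replication genes were low mainly against D7. Against the mean of the ends 11 of 41 were lower and 1 higher. The median was -0.47, made of -0.16 against D0 and -0.77 against D7. In the test against D0 2 were lower, and in the test against D7 25 were lower. The 11 became 2 to 18 as single libraries were left out (2 or 3 without either D1 library, either D7 library, D0 replicate 2 or D3 replicate 2, 7 without D0 replicate 1 and 18 without either D5 library) and 1 without the replicate term. The higher member was Ccne1, cyclin E1 of the entry into S phase, at 235, 169, 210 and 151 CPM in transit, against 84.2, 83.8, 86.1 and 84.8 CPM at the ends (1.17 ± 0.18, adjusted p = 0.000895). Its end libraries were nearly equal and its transit libraries all above them, yet the transient call was lost without D0 replicate 1 (larger adjusted p = 0.0718) or D7 replicate 1 (0.0652).

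Inhibitors of the cell cycle were mixed. Cdkn1c, which encodes the kinase inhibitor p57, had 864 and 849 CPM at D1 and 1839 and 1872 CPM at D3, against 230 and 138 CPM at D0 and 336 and 332 CPM at D7 (2.34 ± 0.27, adjusted p = 0.00015). It was above both ends in all 4 transit libraries and kept its call without each library. Cdkn1a, which encodes p21, had 810, 795, 939 and 1323 CPM, against 478, 557, 187 and 324 CPM (1.42 ± 0.21, adjusted p = 0.000775), but its call against D0 was weak and was lost without either D0 library, D1 replicate 1 or D3 replicate 1 (larger adjusted p = 0.0578 to 0.299) and without the replicate term (0.173). Trp53 itself had 133, 188, 134 and 129 CPM in transit, against 210, 333, 246 and 215 CPM at the ends (-0.78 ± 0.18), lost as transient without 5 of the libraries and without the replicate term (0.107). Of 30 tested p53 targets and inhibitors 6 were higher and 2 lower, and the median was -0.05, or 0.12 in replicate 1 alone. The 2 became 0 or 1 without each library of D0, D1 or D3 and without D7 replicate 2. The promoters of Bub1 and Ndc80 are printed as examples from the mitosis list, chosen after values were seen. They lie on the minus strand of chr2:127831810-127832109 and of chr17:71526808-71527107.
Bub1: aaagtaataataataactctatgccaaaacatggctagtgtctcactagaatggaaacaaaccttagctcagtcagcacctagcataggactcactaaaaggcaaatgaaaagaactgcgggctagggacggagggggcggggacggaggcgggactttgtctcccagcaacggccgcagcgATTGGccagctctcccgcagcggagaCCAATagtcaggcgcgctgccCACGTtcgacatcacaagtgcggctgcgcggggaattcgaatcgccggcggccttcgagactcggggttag
Ndc80: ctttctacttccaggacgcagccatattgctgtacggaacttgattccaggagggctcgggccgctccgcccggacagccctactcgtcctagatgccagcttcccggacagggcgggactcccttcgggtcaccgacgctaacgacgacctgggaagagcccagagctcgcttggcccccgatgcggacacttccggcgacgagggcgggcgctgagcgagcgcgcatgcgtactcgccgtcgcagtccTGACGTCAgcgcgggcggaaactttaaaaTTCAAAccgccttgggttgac
Bub1 holds 2 CCAAT boxes, 1 of them on the other strand as ATTGG, and a hypoxia core, and Ndc80 holds a CRE and a CHR. These windows have no marked motif in common. The CHR stood in 21 of 30 mitosis promoters with a window (70.0%), against 11.7% of tested genes and 18.1% of all windows. The CCAAT box stood in 22 of the 30 (73.3%), against 39.3% and 37.9%. Among the transient higher and transient lower promoters the CHR stood in 10.9% and 24.0%, and the CCAAT box in 38.9% and 46.9%. As for the other lists, nothing about expression is read from the shares of the mitosis list.

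**Figure D4:**
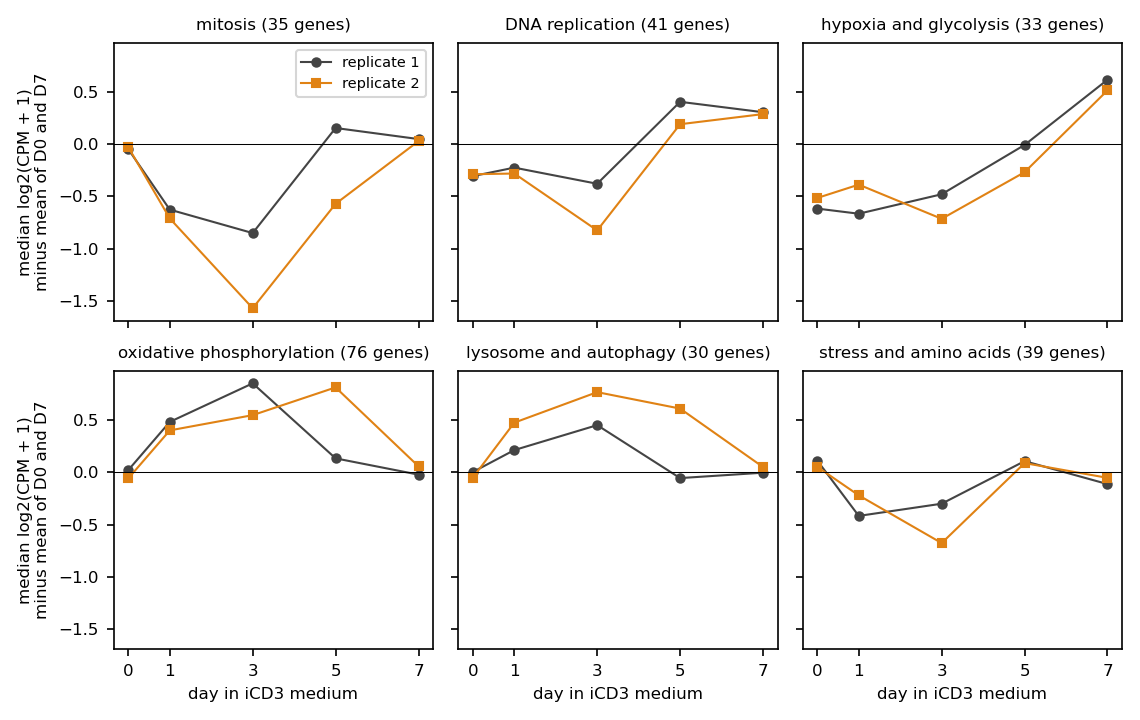
The median log2(CPM + 1) of the genes of each list, relative to the mean of D0 and D7 of the same replicate, is drawn over D0, D1, D3, D5 and D7, with a line for each replicate. Mitosis genes stood at -0.63 and -0.85 at D1 and D3 in replicate 1 and at -0.71 and -1.57 in replicate 2, while at D5 replicate 1 was at 0.15 and replicate 2 at -0.57.

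The delivered factors and the matrix and contractile genes, on the main axis of reprogramming, gave many calls against the mean of the ends. The 4 delivered factors were all higher against that mean, with medians of 0.41 against D0 and 1.82 against D7, none transient, and 2 of them remained called without D1 replicate 1, without D7 replicate 2 or without the replicate term. Esrrb had 2150 and 2354 CPM at D1 and 1913 and 2886 CPM at D3, against 1579 and 1836 CPM at D0 and 607 and 576 CPM at D7. The counts do not separate delivered from endogenous messages of these genes. Of 34 pluripotency genes 3 were higher and 5 lower in the main fit, not far from the 10.3% and 8.76% among all genes. Their medians were 1.96 against D0 and -4.61 against D7. The 5 became 1 to 3 without each library of D0, D3 or D7 and without D1 replicate 1. They became 18 on log2(TPM + 1) and 0 with 2 terms in place of days. Pou5f1, the master factor of pluripotency, had 7.30 and 1.42 CPM at D1 and 137 and 30.6 CPM at D3, against 0 and 3.74 CPM at D0 and 335 and 327 CPM at D7. It lay between the ends at D3. At D1 replicate 1 was above both D0 libraries and replicate 2 between them. The transient pluripotency gene was Klf2, a Krüppel-like factor of the naive state, with 0.913 and 0.712 CPM at D1 and 22.2 and 13.4 CPM at D3, against 11.2 and 20.2 CPM at D0 and 116 and 126 CPM at D7. At D3 replicate 1 was above both D0 libraries and replicate 2 between them, and the call was lost without D1 replicate 1 (larger adjusted p = 0.0514) or D0 replicate 2 (0.12). Of 36 collagen and matrix genes 17 were lower and 2 higher, with medians of -2.33 against D0 and 1.15 against D7. The 17 became 11 without D1 replicate 1, and the 2 became 0 without D1 replicate 1 or D0 replicate 2 and 1 without D7 replicate 1. The single transient one was Plod2, a lysyl hydroxylase of collagen, with 106, 85.4, 56.2 and 40.2 CPM in transit, against 215, 170, 220 and 106 CPM at the ends, lost without D7 replicate 1 (0.1) or the replicate term (0.0599). Of 25 contractile genes 16 were lower and none was transient, and the 16 became 10 without D0 replicate 1 or D1 replicate 1. Few members of these lists were transient, but so were few of all genes (3.22% higher and 1.91% lower). Nothing is read from these low counts.

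Few transient genes passed the test between the 2 transit days. Of the 410 higher genes 11 were higher and 1 lower at D3 than at D1, and of the 243 lower genes 3 were higher and 3 lower, beside 0.831% higher and 0.784% lower among all genes (1.62% in all). These 18 became 1 to 5 without each library of D1 or D3 and 95 and 96 without the D5 libraries. Most did not pass the test between the ends. At D7 against D0, 71 of the 410 were higher and 9 lower, and 17 of the 243 were higher and 15 lower, beside 14.8% higher and 13.7% lower among all genes (28.5% in all). A gene that differs from both ends in the same direction is by that choice less likely to differ between them, so nothing is read from the lower share. These 112 became 54, 66 and 55 without D0 replicate 1, D0 replicate 2 or D7 replicate 1, and 171 without D5 replicate 1. At D5, 113 of the 410 were lower than in transit, beside 5.19% of all genes, and 90 of the 243 were higher, beside 7.4% of all genes (12.6% in either direction). The genes were chosen for their values in the same transit libraries, so nothing is read from the higher shares. These 203 became 85 without D5 replicate 1, 352 without D5 replicate 2, 66 without D1 replicate 1 and 122 without D3 replicate 2. Between D7 and D5, 5 of the transient genes differed, beside 0.125% higher and 0.0314% lower among all genes (0.157% in all). The 5 became 270 without D5 replicate 1, and 1 to 3 without D0 replicate 1, either D3 library or D7 replicate 2. The 2 D5 libraries differed in how far back the transient genes lay. Set on a scale from 0 at the transit mean to 100 at D7, the transient higher genes had a median of 71.1 in replicate 1 and 22.3 in replicate 2, and the lower genes 77.0 and 37.8. In replicate 1, 342 higher genes (83.4%) and 186 lower genes (76.9%) were past halfway, against 107 (26.2%) and 92 (38.2%) in replicate 2. Ass1 had 1072 CPM in D5 replicate 1 and 2528 CPM in D5 replicate 2, and Ldhb had 478 and 1628 CPM. Whether the 2 cultures had come to different points by D5, or the libraries differ for another reason, was not tested.

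**Figure D5:**
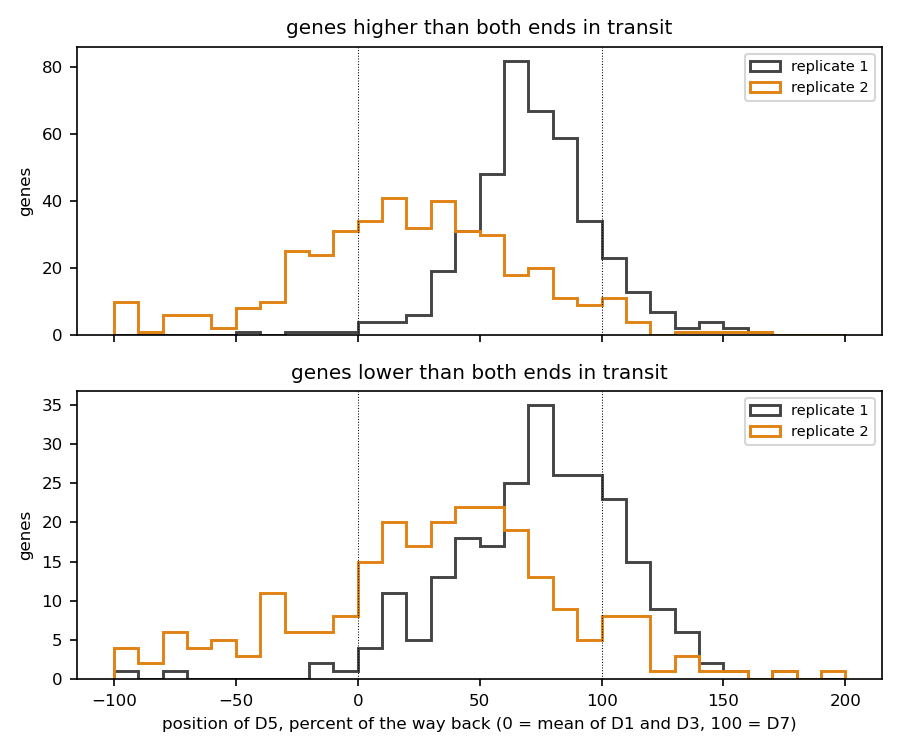
The place of D5 on the way back is drawn for the transient genes as histograms, with 0 for the transit mean and 100 for D7 on the horizontal axis and the number of genes on the vertical axis, for each replicate and direction, with values outside the axis set to its limits. Replicate 1 has its medians at 71.1 (higher genes) and 77.0 (lower genes), and replicate 2 at 22.3 and 37.8.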

How the data were processed

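Messenger RNA of 10 libraries was sequenced, and each has a deposited gene table. Per the file headers, the authors' tables hold RSEM's expected counts, TPM and FPKM per gene. Per the submitters' processing notes, bcl2fastq, Bowtie2 and RSEM were used on mm10, with versions, annotation release and strand use not given in the sources used here. Reads shared by near-identical or overlapping genes were divided by the authors' estimate. Expected counts were rounded, and genes without enough reads (minimum count 10 in edgeR's filter) were left out, leaving 12752. The deposited TPM served an alternative, and the FPKM columns were not used. Gene names came from GENCODE M21 for 54723 of 54752 identifiers, and the 29 others held under 0.002% of counts in each library.

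edgeR 4.0.16 (R 4.3.3) was fitted to all 10 libraries by quasi-likelihood with TMM scaling, a term per day and the replicate number as block, and p-values were adjusted by Benjamini-Hochberg over all genes tested, with a threshold of 0.05. A standard error was taken as the log2 change over the root of its F value. A gene is transient where its tests against D0 and D7 both pass with the same sign, and the larger adjusted p is given. The replicate number was kept because the series design mentions 2 independent experiments. Deviations of same-numbered libraries from their day's mean correlated at 0.27 to 0.44 in all pairs of days. A technical difference shared by the libraries of a replicate would give such a correlation too, so it does not show that the cultures were paired. Replicates differed by more than sampling noise (chi-square per gene 7.81 to 23.5, highest at D5). Implied mean fragments were 135.8 to 158.5 bases in replicate 1 and 198.8 to 204.1 in replicate 2. The fit was tested on simulated data with the same spread on every day, which thus lacked the larger scatter of D5.

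Genes were named by rule: the 12 protein-coding transient genes per direction with the largest lesser shift, without overlap and with at least 10 CPM on the higher side, then transient members of each of 53 lists, then a fixed panel. Some genes that the rule takes are not reported here. Asns is named as a further transient member of its list and was chosen after its values were seen. The members, lists and tests were chosen with earlier results of these data known. CPM are rounded counts per 1000000 of the library total after scaling. Alternatives were DESeq2 1.42.0, limma 3.58.1 (voom, and log2(TPM + 1)), RLE and upper-quartile scaling, no filter and a minimum count of 30, thinning to equal depth, no block, no D5, 2 terms in place of days, and leaving out each library. Intervals and floors (3 counts) cover counting error only. Promoter windows are from RefSeq (GRCm38.p6).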

Additional observations from a re-analysis of the deposited data

Results flagged for a closer look

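In 4 of the named transient genes the 2 transit days themselves differed by the test of D3 against D1 (edgeR, adjusted over all genes). Il18r1 had 15.2 and 23.1 CPM at D3 and 1.52 and 1.42 CPM at D1 and was 3.57 ± 0.75 log2 units higher at D3 (adjusted p = 0.0376). Fgf17 was 2.69 ± 0.52 higher at D3 (adjusted p = 0.0224) and Hey1 1.78 ± 0.30 (adjusted p = 0.0155). Klf2, which is transient lower, was 4.38 ± 0.56 higher at D3 (adjusted p = 0.00292), with under 1 CPM in both D1 libraries. In each of the 4 genes both D3 libraries were above both D1 libraries. For these genes the mean of D1 and D3 describes neither day.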

How the results depend on the processing

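No named gene's change reversed under an alternative, and without the replicate block 42 of the 105 named transient genes lost that call, but counts moved widely. In the order genes higher, genes lower, transient higher and transient lower, the main counts were 1310, 1117, 410 and 243. Without the replicate block they were 630, 407, 159 and 80, all of these transient genes being among the 410 and 243. Of the transient genes, those called in D3 against D1, D7 against D0, D5 against transit and D7 against D5 were then 1, 68, 51 and 0, against 18, 112, 203 and 5. The 8 libraries without D5 gave 1725 genes lower, 684 transient higher and 432 transient lower, which hold all 410 and 243, and 88 called in D3 against D1. With 2 terms in place of days, 203 were higher and 98 lower. On log2(TPM + 1), 825 were higher, 249 transient higher and 108 transient lower, with 6 and 78 called in D3 against D1 and D5 against transit. There the median of all genes was -0.10 log2 units, against -0.01. Calls in D3 against D1 were 78 without a filter and 29 by DESeq2, and calls in D7 against D5 were 99 without a filter, 3 with the stricter one, 29 by DESeq2 and 11 after thinning. All 4 day pairs were called for 170 higher and 48 lower genes. Leaving out 1 library gave 580 to 1994 genes higher, 372 to 1724 lower, 170 to 715 transient higher and 67 to 423 transient lower. The same gave 1 to 96 called in D3 against D1, 54 to 171 in D7 against D0, 66 to 352 in D5 against transit and 1 to 270 in D7 against D5. Of 105 named transient genes 33 kept their call without each library and 30 under every alternative that gave a value. Counts of 3 are worth up to 2.26 CPM in the shallower replicate 2, so dips to a few CPM, as in Bnip3, Trib3 and Pycr1, rest on few reads. The cause of these moves was not tested.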

Other observations

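Imprinted genes, a list put together after their values had been seen, held several large dips. Peg3, the imprinted zinc finger gene next to Zim1, had 56.9 and 77.6 CPM at D1 and 122 and 155 CPM at D3, against 423 and 541 CPM at D0 and 284 and 468 CPM at D7. Meg3, the maternally expressed long RNA of the Dlk1 domain, had 73.0 and 35.6 CPM at D1 and 116 and 75.3 CPM at D3, against 340 and 238 CPM at D0 and 191 and 242 CPM at D7. Rian, a second RNA of that domain, had 154, 51.9, 164 and 90.2 CPM in transit, against 415, 285, 209 and 244 CPM at the ends. Mest had 43.5, 50.5, 76.4 and 75.3 CPM in transit, against 97.9, 105, 419 and 560.5 CPM at the ends. In each of these 4 genes all transit libraries were below all end libraries, as they were in Zim1 and Zdbf2. Over the 33 tested members, 11 were called lower and 4 higher, beside 8.76% and 10.3% of all genes. Without overlap, 9 were lower and 5 higher, beside 5.22% and 7.03% of all genes. The list was picked on these values, so nothing is read from the counts. Its 6 transient lower members became 3 without D7 replicate 2. The pattern was not general: over the 33 tested imprinted genes, 16 changes were above 0 and 17 below, with a median of -0.06, and Cdkn1c went the other way at 849 to 1872 CPM in transit, against 138 to 336 CPM at the ends.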
